A study of Mus musculus with 2 samples.

Results

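The genes described here make, carry, store and burn fatty acids in mouse superficial zone cells, the flattened chondrocytes of the surface of articular cartilage. They were chosen as a list of 40 gene symbols covering fatty acid uptake and binding, synthesis, elongation and desaturation, activation, storage, lipolysis and oxidation, with every probe set taken whose platform symbol was exactly one of them. Of the 40, 38 had a probe set under their symbol, among 18193 named genes on the array, and 84 probe sets read them in all. The other 2, Acsl1 and Ucp2, were not analysed here. The rule itself uses no measured value, but the list was drawn up with earlier results of these data known.

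The cells came from femoral and tibial joints of mice of the ICR strain, 4 days after birth, and were grown in DMEM with 10% serum. One culture received 10 μM retinoic acid, the active form of vitamin A, for 24 h (n = 1), and one was kept without it (control, n = 1). RNA from each was read on 1 Affymetrix Mouse Genome 430 2.0 array, and the deposited values are MAS5 signals, linear intensities with 1 value per probe set. The labels do not say how many animals each culture held or whether both came from a single cell preparation.

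With 1 array per group there was no replicate check and no test, so each fold below compares these 2 cultures only, and the precision of all values is limited by having so few arrays. In cultured cells that may hold several types, fewer cells of a type and less RNA per cell cannot be told apart. A gene was read by its brightest probe set and counted as measured when that signal exceeded the median of that array's probe sets (control probe sets left out), 29.7 on the retinoic acid array and 26.5 on the control array. Of 18193 genes 11884 were measured. The trimmed mean signals were 192 with retinoic acid and 182 in control, and the 18 hybridisation spike-in probe sets had a median ratio of 1.05 (range 0.863 to 1.15). Where a gene had several probe sets above both medians (4993 genes), their log2 ratios had a pooled SD of 0.30. It holds measurement scatter within the same RNA and no variation between cultures.

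Fatty acids are built in the cytosol from citrate through acetyl-CoA and malonyl-CoA, then lengthened and desaturated in the endoplasmic reticulum. Once joined to coenzyme A they are esterified into phospholipids or into triglyceride in lipid droplets, or enter mitochondria through the carnitine shuttle and are shortened by beta-oxidation. Chondrocytes live in a tissue without blood vessels and draw most of their energy from glycolysis, and they too hold lipid droplets. Retinoic acid acts through retinoic acid receptors paired with retinoid X receptors, and retinoid X receptors also pair with PPARs and LXRs, which control many genes of fatty acid metabolism.

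Of the 38 genes 35 were measured, each of them on both arrays. Fabp4 and Fabp5, which encode fatty acid binding proteins, Acsl4, which encodes an acyl-CoA synthetase, and Lpin1, which encodes the phosphatidate phosphatase lipin 1, had signals at least 2-fold higher with retinoic acid. G0s2, which encodes an inhibitor of triglyceride lipolysis, Srebf1, which encodes the lipogenic transcription factor SREBP1, Dgat2, which encodes an enzyme that completes triglyceride, and Lpl, which encodes lipoprotein lipase, were at least 2-fold lower. These 4 higher genes make up 11.4% of the measured members, against 6.54% of all measured genes at least 2-fold higher, and the 4 lower ones likewise 11.4%, against 4.34% of all measured genes at least 2-fold lower. At 1.5-fold, 8 members were higher (22.9%, against 14.3% of all measured genes) and 5 lower (14.3%, against 11.4%). The median log2 ratio of retinoic acid over control was 0.14 over the members and 0.017 over all measured genes. The other 22 members lay within 1.5-fold.

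**Figure D1:**
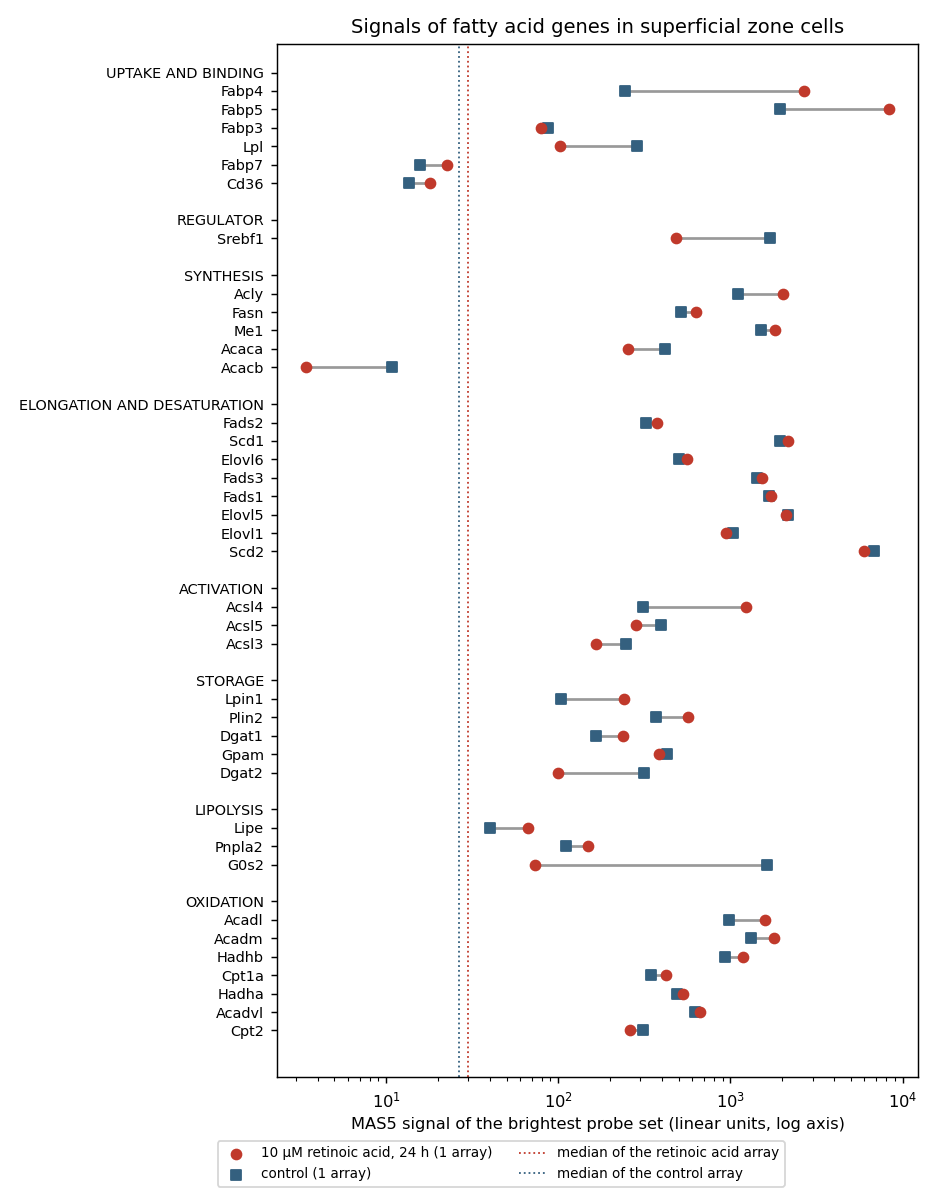
MAS5 signal (log axis) of the brightest probe set of the 38 fatty acid genes, with retinoic acid (circles) and in control (squares). Each group has 1 array, and genes are grouped by role. The length of the joining line shows the size of the log ratio. Dotted lines are the array medians, 29.7 with retinoic acid and 26.5 in control. Fabp7, Cd36 and Acacb lie below both, and the longest lines above them belong to G0s2 (73.7 against 1625) and Fabp4 (2689 against 244).

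Ranked among the 10722 genes above the median on both arrays, G0s2 ranked 2 from the lowest ratio and Fabp4 ranked 22 from the highest. Fabp5 ranked 133, Acsl4 164 and Lpin1 451 from the highest. From the lowest, Srebf1 ranked 99, Dgat2 129 and Lpl 180. The list thus held genes from both tails, beside a larger number near the middle.

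**Figure D2:**
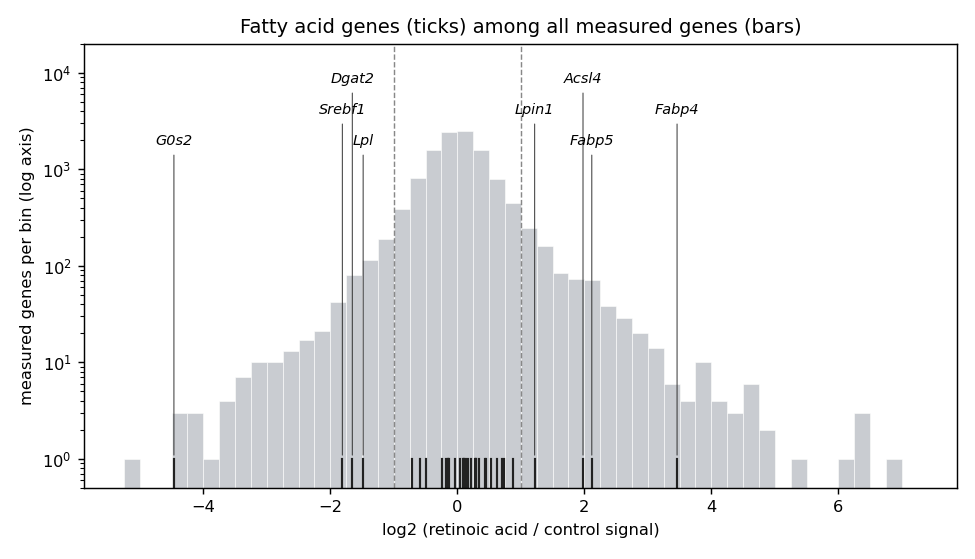
Log2 ratio of retinoic acid over control for all 11884 measured genes (bars, genes per bin of the ratio, log axis) and for the 35 measured fatty acid genes (ticks at the bottom, those past 2-fold named). Dashed lines mark 2-fold; 4 genes lie beyond each, and most ticks sit around 0.

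The array reads transcripts and not promoters. To show the DNA before the genes with the large differences, the 250 bases before the transcription start are printed for those with a single start in the RefSeq promoter table (GRCm38.p6), 5′ to 3′ on the gene's strand. G0s2 lies on the minus strand (chr1:193273189-193273438), as do Acsl4 (chrX:142390536-142390785) and Lpin1 (chr12:16610967-16611216). Capitals mark AGGTCA, a half-site of retinoid and other nuclear receptors. These exact letters were searched, and variants of them were not.
G0s2: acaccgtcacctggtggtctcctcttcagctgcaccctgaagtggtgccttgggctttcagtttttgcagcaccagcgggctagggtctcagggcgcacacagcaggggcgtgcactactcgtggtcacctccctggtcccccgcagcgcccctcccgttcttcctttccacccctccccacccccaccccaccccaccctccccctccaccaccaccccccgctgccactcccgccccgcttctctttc
Acsl4: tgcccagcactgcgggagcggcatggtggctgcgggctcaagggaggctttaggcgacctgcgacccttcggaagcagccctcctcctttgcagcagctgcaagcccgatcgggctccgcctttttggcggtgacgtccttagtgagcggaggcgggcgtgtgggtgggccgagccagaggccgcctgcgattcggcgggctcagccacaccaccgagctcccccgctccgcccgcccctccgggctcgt
Lpin1: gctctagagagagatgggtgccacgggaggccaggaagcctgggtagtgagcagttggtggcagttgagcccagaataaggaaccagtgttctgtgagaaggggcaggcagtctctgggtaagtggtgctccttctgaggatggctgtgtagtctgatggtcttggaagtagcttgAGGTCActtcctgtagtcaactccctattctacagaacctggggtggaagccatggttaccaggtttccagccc

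The stretches before G0s2 and Acsl4 were GC-rich (67.2% and 70.8%, against a median of 52.4% over all such windows) and held no AGGTCA on either strand. Lpin1 (54.8% GC) held 1, on the gene's strand, from 74 to 69 bases before the start. The table matched 32 of the 40 members, in 39 windows of 250 bases, of which 11 (28.2%) held AGGTCA on either strand, against 4607 of 32851 windows of all genes (14.0%). The members with it were Acadm, Acadvl, Acly, Cd36, Cpt1a, Elovl1, Elovl6, Fabp7, Gpam, Lpin1 and Plin2. Srebf1 has 3 windows, none with it, so of the 4 members past 2-fold with a window, Lpin1 alone held it. The direct repeats AGGTCANAGGTCA and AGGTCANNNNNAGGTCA, which contain the half-site, were in 0 member windows and in 11 and 3 of all windows. The E-box CACGTG, which reads the same on both strands, was in 2 member windows (Elovl5 and Lipe, 5.13%), against 6.02% of all windows. A match of letters is a description and not a binding site, and the window covers a small piece of each gene's regulatory DNA. Dgat1, Dgat2, Fabp4, Fabp5, Fads1, Lpl, Scd1 and Scd2 were not matched.

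Genes of uptake and binding lay far apart. Fabp4, whose product carries fatty acids in adipocytes and macrophages, had a signal of 2689 with retinoic acid and 244 in control, 11.0-fold higher. A second probe set above both medians read 1913 with retinoic acid and 140 in control, 13.7-fold higher. The remaining 2 Fabp4 probe sets, 25.9 and 28.1 with retinoic acid against 11.0 and 0.893 in control, were below the median on both arrays and carry no ratio. Both bright probe sets thus put Fabp4 past 2-fold, and both have names that mark them as reading several transcripts of one gene.

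Fabp5, which encodes a paralog that binds fatty acids and also retinoic acid, had a signal of 8377 with retinoic acid and 1930 in control, 4.34-fold higher. Its dimmer probe set read 4181 with retinoic acid and 723 in control, 5.78-fold higher. Both probe sets thus put Fabp5 past 2-fold, with the larger fold on the dimmer one. Fabp3, the family member of heart and skeletal muscle, had 79.0 with retinoic acid and 87.6 in control, a log2 ratio of −0.15, which is smaller than the scatter between probe sets. Fabp7, the member of brain and glia, was not measured, with 22.7 and 15.6. So among the 4 binding protein genes the difference lay in Fabp4 and Fabp5.

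Lpl, whose product releases fatty acids from lipoprotein triglyceride, went the other way, with 102 with retinoic acid and 286 in control, 2.80-fold lower. A second Lpl probe set read 28.8 with retinoic acid, below that array's median, against 96.6 in control, at least 3.25-fold lower. Cd36, which encodes a fatty acid transporter of the plasma membrane, had 17.8 with retinoic acid and 13.5 in control and was not measured by any of its 3 probe sets. Lpl thus stood on the opposite side from Fabp4 and Fabp5.

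Fabp4 and Fabp5 are neighbours in a cluster of Fabp genes on chromosome 3. In the order of protein-coding genes in the RefSeq table they enclose Pmp2 and Fabp9, and Fabp12 follows. Those 3 genes of the same family were at or below the median on both arrays: Pmp2 had 1.47 with retinoic acid and 3.84 in control, Fabp9 4.63 and 7.40, and Fabp12 10.7 and 9.53. Pag1, next to Fabp5 on the outer side, had 524 with retinoic acid and 387 in control, and Impa1, beyond Fabp12, had 635 and 597. The genes on either side of the cluster were within 1.5-fold. Of the genes next to other members past 2-fold, Tmem164, beside Acsl4, had 779 with retinoic acid and 321 in control, 2.43-fold higher, and Trib2, beside Lpin1, had 590.0 and 246, 2.39-fold higher. Kcne1l, on the other side of Acsl4, and Ntsr2, on the other side of Lpin1, were below the median on both arrays. Next to Srebf1, Rai1 had a log2 ratio of −0.29 and Tom1l2 of −0.94. Uvrag, beside Dgat2, lay on the opposite side from it, with 509 with retinoic acid and 356 in control. Beside Lpl, Ints10 had a log2 ratio of −0.01, and Slc18a1, below the median in control, of at least 0.23. Any link between neighbours and members was not tested.

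Srebf1 is read by 1 probe set, so its value has no second reading on the array. The signal was 486 with retinoic acid and 1704 in control, 3.51-fold lower. SREBP1 switches on the genes of fatty acid synthesis, and its signal is set here beside those of the 4 measured enzyme genes of synthesis, of which 0 passed 2-fold downwards (4.34% of all measured genes did). Fasn, which encodes fatty acid synthase, had 634 with retinoic acid and 515 in control, 1.23-fold higher. Me1, whose product supplies NADPH for synthesis, had 1813 with retinoic acid and 1498 in control, 1.21-fold higher, and its second probe set gave a log2 ratio of 0.26 against 0.28.

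Acly, which encodes ATP citrate lyase, the source of cytosolic acetyl-CoA, had 2019 with retinoic acid and 1103 in control, 1.83-fold higher. The other 2 Acly probe sets above both medians gave log2 ratios of 0.72 and 0.83, close to the 0.87 of the brightest. Acaca, which encodes the acetyl-CoA carboxylase that makes malonyl-CoA for synthesis, had 254 with retinoic acid and 417 in control, 1.64-fold lower, with −0.22 in its dimmer probe set against −0.71 in the brighter. Acacb, whose carboxylase sits at mitochondria, was not measured (3.40 and 10.8). Acly and Acaca were thus past 1.5-fold in opposite directions, and 0 of the 4 passed 2-fold in either, where 89.1% of all measured genes also lay within 2-fold. Their median log2 ratio was 0.29.

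The 8 elongase and desaturase genes lay closer together than those of any other role with more than 1 measured gene. Their log2 ratios ran from −0.18 to 0.21, a range within the 0.30 scatter between probe sets on either side of 0, and their median absolute log2 ratio was 0.14, against 0.31 over all measured genes. Scd2, which encodes a stearoyl-CoA desaturase, had 5989 with retinoic acid and 6798 in control. Its paralog Scd1 had 2158 with retinoic acid and 1931 in control. Elovl5, an elongase gene for polyunsaturated fatty acids, had 2107 and 2152. Fads2, which encodes the delta-6 desaturase and had the highest ratio of the group, had 374 with retinoic acid and 324 in control, 1.16-fold higher.

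Fads1, Fads2 and Fads3 adjoin each other on chromosome 19, as do the Scd genes. Fads1, the delta-5 desaturase gene, had 1713 with retinoic acid and 1671 in control, and Fads3 had 1523 and 1421. Dimmer probe sets of Fads3 and Scd2 gave ratios beyond the 0.30 scatter: a log2 ratio of 0.53 for Fads3, against 0.10 and 0.11 in its other probe sets, and −0.41 for Scd2, against −0.18 and −0.19. Elovl6, which lengthens palmitate, had 557 with retinoic acid and 505 in control, and Elovl1, for very long saturated chains, had 940 and 1033. Scd3 lies in the same cluster as Scd1 and Scd2 and was below the median on both arrays, with 3.04 and 19.9.

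Long-chain acyl-CoA synthetases join fatty acids to coenzyme A, and their genes did not move as a family. Acsl4, whose product prefers arachidonic acid, had 1229 with retinoic acid and 312 in control, 3.94-fold higher. The other 2 probe sets read 510 and 239 with retinoic acid against 185 and 79.5 in control, log2 ratios of 1.47 and 1.59. All 3 Acsl4 probe sets thus passed 2-fold. Acsl3, whose product is found on lipid droplets, had 165 with retinoic acid and 247 in control, a log2 ratio of −0.58, with −0.17 in a dimmer probe set. Acsl5 had 281 with retinoic acid and 395 in control, a log2 ratio of −0.49.

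Storage genes stood on both sides as well. Lpin1, whose product turns phosphatidate into diacylglycerol and which also acts as a transcriptional coactivator, had 241 with retinoic acid and 104 in control, 2.33-fold higher. A dimmer probe set read 148 with retinoic acid and 44.7 in control, 3.31-fold higher. Dgat2, which encodes one of the 2 acyltransferases that finish triglyceride, had 99.9 with retinoic acid and 315 in control, 3.15-fold lower, and its second probe set read 58.5 and 211, 3.60-fold lower. Dgat1, which encodes the other acyltransferase, had 238 with retinoic acid and 165 in control, a log2 ratio of 0.53. The suffix of that probe set's name does not mark it as unique to 1 transcript, and the other Dgat1 probe set read 24.5 with retinoic acid, below the median, and 31.2 in control, a log2 ratio of −0.07 against the floor. Of the 2 acyltransferase genes Dgat2 alone was past 2-fold. The side of Dgat1 is uncertain, since its 2 probe sets differed and the second gave only a bound near the floor.

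Gpam, whose mitochondrial enzyme opens glycerolipid synthesis, had 386 with retinoic acid and 427 in control, a log2 ratio of −0.14. Plin2, which encodes the coat protein of lipid droplets, had 568 with retinoic acid and 370 in control, 1.54-fold higher from its single probe set. Mogat2, a monoacylglycerol acyltransferase gene that lies next to Dgat2 on chromosome 7, had 25.3 with retinoic acid, below the median, and 45.5 in control.

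Among the lipolysis genes, G0s2 had the lowest ratio of the whole list. Its signal was 73.7 with retinoic acid and 1625 in control, 22.1-fold lower, and 1 probe set reads it. G0s2 binds and inhibits adipose triglyceride lipase, the product of Pnpla2. Pnpla2 itself had 149 with retinoic acid and 110 in control, 1.35-fold higher. Lipe, which encodes hormone-sensitive lipase for the next step, had 66.9 with retinoic acid and 40.2 in control, 1.67-fold higher at low signals. Its other probe set, with 4.35 with retinoic acid and 18.8 in control, was below the median on both arrays and carries no ratio. The same holds for the other Pnpla2 probe set, with 9.76 and 16.8. So the inhibitor gene was far lower, and the lipase genes lay within 2-fold, as did 89.1% of all measured genes. Hsd11b1 and Lamb3, the genes on either side of G0s2 on chromosome 1, had log2 ratios of −0.29 and −0.98.

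Oxidation genes lay within 2-fold throughout, as did 89.1% of all measured genes, with 6 of 7 log2 ratios above 0 (6130 of 11884 over all measured genes) and a median of 0.29. Acadl, which encodes the long-chain acyl-CoA dehydrogenase, had 1595 with retinoic acid and 977 in control, 1.63-fold higher and the largest ratio of the 7. Acadm, for medium chains, had 1799 with retinoic acid and 1320 in control, 1.36-fold higher. Acadvl, for very long chains, had 662 and 621. The 3 dehydrogenase genes thus differed by unequal amounts. With the arrays scaled to equal trimmed means each log2 ratio was lower by 0.080, and 6 of 7 were above 0 under each scaling tried, against 5 of 7 with unique probe sets only.

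Cpt1a, which encodes the carnitine palmitoyltransferase that admits acyl chains to mitochondria, had 421 with retinoic acid and 344 in control. Its 3 probe sets gave log2 ratios of 0.29, 0.39 and 0.80, of which the 2 higher come from probe sets named as open to cross-hybridisation. Cpt2, which completes the transfer, had 262 with retinoic acid and 310 in control, a log2 ratio of −0.24. Hadha and Hadhb encode the subunits of the mitochondrial trifunctional protein and lie side by side on chromosome 5. Hadha had 529 with retinoic acid and 490 in control, and Hadhb 1179 and 932. The 2 Hadhb probe sets above the medians gave log2 ratios of 0.34 and −0.07. The 0.34 comes from a probe set named as open to cross-hybridisation. None of these carnitine shuttle and trifunctional protein genes passed 1.5-fold on its brightest probe set. Of all measured genes, 74.3% also lay within 1.5-fold.

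**Figure D3:**
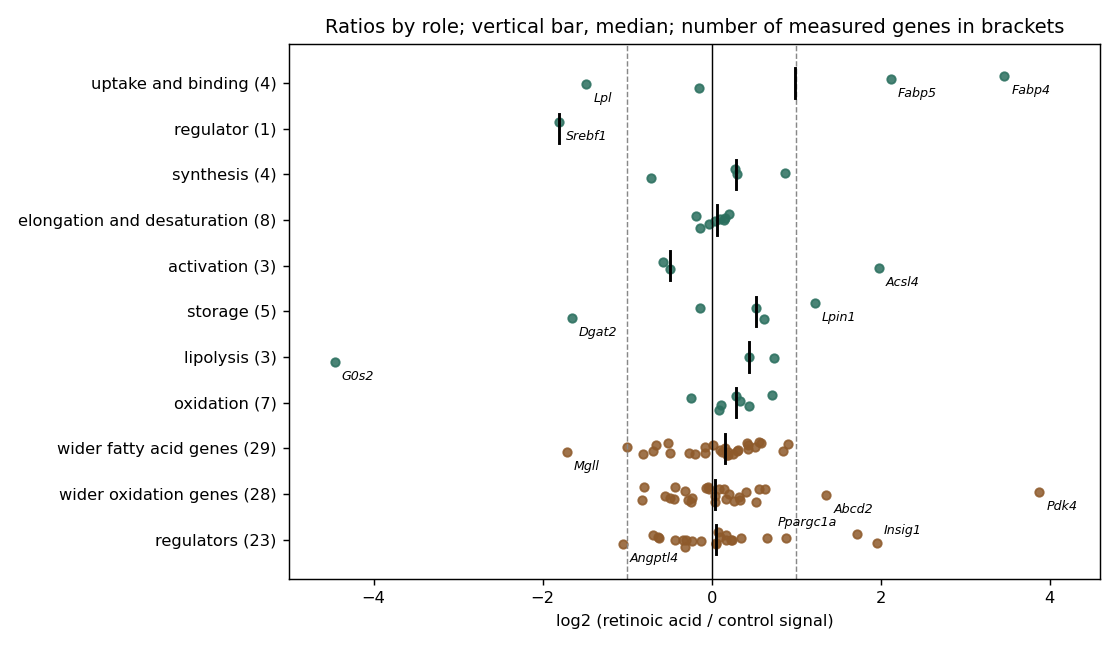
Log2 ratio of retinoic acid over control of each measured gene (points, spread vertically for legibility) by role of the fatty acid genes (green) and in 3 wider lists (brown); the bar is the median of the group, the number in brackets its measured genes, and dashed lines mark 2-fold. Elongation and desaturation covers a narrow range (−0.18 to 0.21), and uptake and binding, activation, storage and lipolysis each hold at least 1 gene past 2-fold.

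Of the 35 measured members 20 had a second probe set above both medians, and the SD between probe sets of one gene over these 20 was 0.21. Among the members past 2-fold, 5 had such a repeat reading (Fabp4, Fabp5, Acsl4, Lpin1 and Dgat2), each on the same side and past 2-fold as well. The other 3, G0s2, Srebf1 and Lpl, rested on 1 probe set above both medians. Of the 84 member probe sets 63 were above the median on both arrays, 3 on 1 array and 18 on neither.

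**Figure D4:**
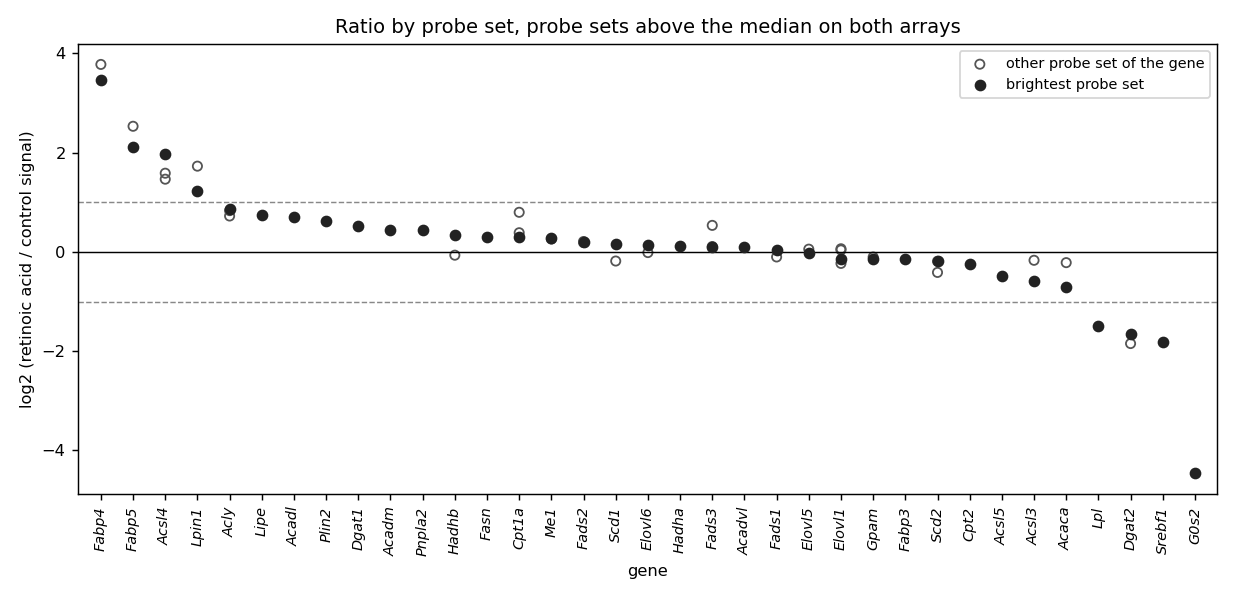
Log2 ratio of retinoic acid over control for every probe set above the median on both arrays, for the 35 measured genes in order of the brightest probe set (filled); open circles are the other probe sets of the gene and dashed lines mark 2-fold. Open circles of Fabp4, Fabp5, Acsl4, Lpin1 and Dgat2 lie past 2-fold on the side of the filled one, and G0s2, Srebf1 and Lpl have a filled point alone.

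Further genes of the same pathways were read from lists outside the 40. They are given by their brightest probe set alone, and their other probe sets were not compared. Of 46 wider genes of fatty acid handling 43 had a probe set and 29 were measured, of which 0 passed 2-fold upwards (6.54% of all measured genes did) and 1, or 3.45%, downwards (4.34% of all). Their median log2 ratio was 0.16. The one past 2-fold was Mgll, which encodes monoglyceride lipase, with 15.6 with retinoic acid, below the median, and 97.7 in control, at least 3.29-fold lower. Agpat4, an acylglycerophosphate acyltransferase gene, had 586 with retinoic acid and 1172 in control, just under 2-fold. Elovl7, a further elongase gene, had 58.0 with retinoic acid and 31.0 in control, and Slc27a1, a fatty acid transport protein gene, 96.2 and 53.6, both between 1.5-fold and 2-fold higher.

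Of 35 wider oxidation genes 30 had a probe set and 28 were measured, of which 2, or 7.14%, passed 2-fold upwards (6.54% of all measured genes) and 0 downwards (4.34% of all), and the median log2 ratio was 0.036. Pdk4, which encodes the kinase that restrains pyruvate dehydrogenase, had 388 with retinoic acid and 24.2, below the median, in control, at least 14.6-fold higher. Abcd2, a peroxisomal fatty acid transporter gene, had 67.8 with retinoic acid and 14.4, also below the median, in control, at least 2.56-fold higher. Other peroxisomal genes lay on both sides: past 1.5-fold, Acox2 (168 with retinoic acid and 296 in control) and Acaa1b (32.5 and 56.8) were lower, and Hsd17b4 (848 and 547) was higher. Acad10, with 15.4 with retinoic acid, below the median, and 43.4 in control, was at least 1.46-fold lower. Apart from Acox2 and Acaa1b, the log2 ratios of the genes above both medians lay between −0.49 (Ehhadh) and 0.63 (Hsd17b4).

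Regulators of the pathway were listed apart, and 23 of 29 were measured, of which 2, or 8.70%, passed 2-fold upwards (6.54% of all measured genes) and 1, or 4.35%, downwards (4.34% of all), and the median log2 ratio was 0.054. Insig1, which encodes the protein that retains SREBPs in the endoplasmic reticulum, had 1200 with retinoic acid and 310 in control, 3.87-fold higher. Ppargc1a, which encodes a coactivator of mitochondrial genes, had 176 with retinoic acid and 53.6 in control, 3.29-fold higher. Angptl4, whose product inhibits lipoprotein lipase, had 454 with retinoic acid and 942 in control, 2.08-fold lower, on the same side as Lpl. Lipa, the gene of lysosomal acid lipase, had 479 with retinoic acid and 260 in control, 1.84-fold higher. Srebf2, the paralog of Srebf1 that acts chiefly on sterol synthesis, had 289 with retinoic acid and 339 in control, a log2 ratio of −0.23. Ppard had 63.0 and 77.7, while Pparg (19.3 and 11.6) and Ppara (19.8 and 21.6) were not measured.

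The cell type label was read from its markers. All 8 chondrocyte and superficial zone markers were above the median on both arrays, with signals of 94.8 to 7688 with retinoic acid and 1024 to 10547 in control, and summed signals of 24024 and 46484. Each of the 8 was lower with retinoic acid, by unequal amounts. Acan was 32.3-fold lower, Sox9 10.8-fold, Hapln1 9.37-fold and Matn1 5.54-fold, while Col9a1 was 1.68-fold, Col2a1 1.29-fold and Comp 1.27-fold lower. These last genes had control signals of 10547, 9538 and 9775, where the highest on that array was 13752. Whether folds run small at such high signals was not tested. Prg4, the superficial zone gene of the list, had 1148 with retinoic acid and 1920 in control, 1.67-fold lower. The list as a whole does not single out the superficial zone. Some members are also used by other cells, whose markers are set beside them here. Of 6 adipocyte markers with a probe set, Adipoq, Cidec, Retn, Lep and Pparg were at or below the median on both arrays, and Cebpa had 47.9 with retinoic acid and 74.5 in control, while Fabp4 was 11.0-fold higher. The summed adipocyte marker signal was 96.5 with retinoic acid and 99.7 in control.

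Of 7 macrophage markers 5 were above the median with retinoic acid and 4 in control, with summed signals of 600.4 and 489. Ptprc, the pan-leukocyte marker, had 6.59 with retinoic acid and 5.34 in control. Mrc1 had 91.5 with retinoic acid and 19.9, below the median, in control, at least 3.45-fold higher, on the same side as Fabp4. The other measured macrophage markers lay near 0, with log2 ratios of −0.17 (Csf1r), 0.07 (Lyz2), 0.08 (Adgre1) and 0.31 (Cd68). Of 7 endothelial markers 1 was above the median with retinoic acid and 0 in control (summed signals of 92.3 and 78.0), and Pecam1 had 2.72 and 2.38. Skeletal muscle markers, set beside Fabp3, were above the median for 5 of 7 with retinoic acid and 6 of 7 in control (summed signals of 478 and 488). Of the 6 measured, 3 had log2 ratios above 0 and 3 below. Among them 1 passed 2-fold (16.7%, against 4.34% of all measured genes lower): Des, with 50.3 with retinoic acid and 114 in control, 2.27-fold lower. Of 4 Schwann cell and glia markers, set beside Fabp7, 3 were above it with retinoic acid and 2 in control. Their summed signal of 161 with retinoic acid and 911 in control was mostly S100b (74.3 and 842), a gene that chondrocytes express too. What part these cells had in the members' values was not tested.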

How the data were processed

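Total RNA from 2 cultures was labelled from 100 ng and read on 1 array each, per the labels' protocols. The deposited values are MAS5 signals, linear intensities per probe set; MAS5 is named in the submitters' processing notes, and the sources used here give neither its version nor its scaling target, and hold no detection calls. They were used with no further scaling. Of 45037 probe sets other than controls 34945 had 1 gene symbol in the platform's annotation, 932 several and 9160 none; the last 2 kinds were left out. Matching Entrez identifiers to RefSeq changed 0 symbols.

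A gene was read by its brightest probe set (mean of the log2 signals). Each array's median, taken without control probe sets, was the floor, and a signal at or below it was raised to it; a ratio with 1 side so raised is a bound, written "at least", and a gene with both sides raised was not measured. Ratios are retinoic acid over control. With 1 array per group no test was run and no p-value is given. The members, the wider lists and the markers were chosen with earlier results of these data known. All members are accounted for; wider lists are named by their largest absolute ratios or as the genes a sentence turns on, such as Srebf2, Ppard, Pparg and Ppara, and chromosomal neighbours were chosen after their values were seen. Sequences are RefSeq's (GRCm38.p6).

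Other floors, scalings and probe set choices were tried, and the counting steps were tested on simulated data. Computations ran in Python 3.11.15 (matplotlib 3.10.9, statsmodels 0.14.6, scipy 1.17.1, pandas 2.3.3, numpy 2.4.6).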

Additional observations from a re-analysis of the deposited data

How the results depend on the processing

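The 4 members at least 2-fold higher and the 4 at least 2-fold lower were recomputed under 12 other settings: floors at the 30th and 70th percentile, no floor, a common floor, the median as an offset, only genes above both floors, 4 scalings, the mean over probe sets, and only probe sets named as unique to a transcript. Counting from 1.5-fold in place of 2-fold gave 8 higher. The count of higher members was 3 with a floor at the 70th percentile, where Lpin1 had a log2 ratio of 0.99, and 3 with unique probe sets only, where Fabp4 was not measured. The count of lower members was 5 with no floor, through Acacb at signals below the median, and 3 with unique probe sets only, since Srebf1 has none. The same 8 genes were past 2-fold under the other 9 settings. The median log2 ratio of the members ran from 0.062 (trimmed means set equal) to 0.15 (no floor). Of 414 values of single members under these settings, 0 of those past 2-fold changed sign, 404 moved by less than the 0.30 scatter between probe sets and 10 by more. Many of these values could not move. Each measured member lay above both medians, so the 30th percentile floor, no floor, the common floor and the above-both limit left its ratio unchanged. Setting trimmed means equal or the median ratio to 0 shifted every log2 ratio by a constant, −0.080 or −0.014. Smaller ratios can change sign: Hadhb was 0.34, and −0.07 with unique probe sets only. Dgat1 was 0.53, and −0.07 in that setting, where the value is a bound because the retinoic acid signal was below the median. No paired analysis was possible because each group has 1 array. Signals near the median limit Fabp7, Cd36, Acacb, Lipe and Fabp3.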
